A study of Mus musculus with 8 samples.

Results

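The AP-1 and immediate early factors described here are 10 transcription factor genes of the mouse: the Fos family (Fos, Fosb, Fosl1 and Fosl2), the Jun family (Jun, Junb and Jund), the related basic leucine zipper genes Atf3 and Batf, and the zinc finger gene Egr1. They and the further gene lists below were chosen by name, with earlier results of these data known. Their counts beside all tested genes are thus a description. All 10 factors were found among the 49315 genes of the deposited counts and among the 16760 genes tested. RNA of whole esophagus was sequenced from 4 EoE33 mice, transgenic animals whose esophagus makes too much IL-33, and from 4 wild type littermates. All 8 mice were males of the C57BL/6J strain aged 8 weeks. The promoter that drives the transgene is not given in the sources used here beyond a study title that places it in the epithelium. IL-33 is an alarmin cytokine of epithelial cells, and the study concerns eosinophilic esophagitis.

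AP-1 is a dimer of basic leucine zipper proteins. Jun proteins can pair with themselves or with Fos proteins, whereas Fos proteins need a Jun partner to bind DNA. Fos, Fosb, Jun, Junb, Atf3 and Egr1 are immediate early genes, whose transcripts appear within minutes of growth factor, cytokine or stress signals through MAP kinases and serum response factor and are then rapidly lost. Fosl1 and Fosl2 tend to follow later and last longer, and in squamous epithelium such as that of the esophagus AP-1 takes part in proliferation, wound repair and expression of differentiation genes. Batf is best known from lymphocytes and dendritic cells, where it pairs with Jun proteins and IRF factors.

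Promoter windows from 250 bases before to 50 bases after the start site, as given by RefSeq on GRCm38.p6, were at hand for 8 of the 10 genes, not for Fosl1 and Egr1. Those of Fos and Fosb are shown because these genes had the largest rises, that of Junb because it had the highest level in EoE33 mice, and that of Jun because it was the member that fell. Capitals mark TGACG, the core of the cyclic AMP response element, and TGACNTCA, the longer element of which TGACGTCA is the consensus form, on either strand.
Fos, chr12:85473640-85473939, plus strand: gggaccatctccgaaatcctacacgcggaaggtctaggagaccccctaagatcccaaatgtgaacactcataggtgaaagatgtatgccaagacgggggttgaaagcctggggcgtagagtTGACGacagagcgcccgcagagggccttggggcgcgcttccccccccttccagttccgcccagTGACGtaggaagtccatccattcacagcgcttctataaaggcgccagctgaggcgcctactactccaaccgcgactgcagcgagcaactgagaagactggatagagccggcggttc
Fosb, chr7:19309996-19310295, minus strand: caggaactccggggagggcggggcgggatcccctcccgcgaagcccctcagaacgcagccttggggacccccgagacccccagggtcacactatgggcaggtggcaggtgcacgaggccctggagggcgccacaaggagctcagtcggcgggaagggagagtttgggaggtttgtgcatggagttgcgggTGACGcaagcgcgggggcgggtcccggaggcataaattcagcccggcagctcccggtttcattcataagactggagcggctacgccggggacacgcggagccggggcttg
Junb, chr8:84978699-84978998, minus strand: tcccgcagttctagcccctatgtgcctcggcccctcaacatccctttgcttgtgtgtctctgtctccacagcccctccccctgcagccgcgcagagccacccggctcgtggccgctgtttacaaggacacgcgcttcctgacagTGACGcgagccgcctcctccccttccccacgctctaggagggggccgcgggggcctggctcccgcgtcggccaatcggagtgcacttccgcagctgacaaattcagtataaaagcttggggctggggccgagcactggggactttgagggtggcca
Jun, chr4:95052173-95052472, minus strand: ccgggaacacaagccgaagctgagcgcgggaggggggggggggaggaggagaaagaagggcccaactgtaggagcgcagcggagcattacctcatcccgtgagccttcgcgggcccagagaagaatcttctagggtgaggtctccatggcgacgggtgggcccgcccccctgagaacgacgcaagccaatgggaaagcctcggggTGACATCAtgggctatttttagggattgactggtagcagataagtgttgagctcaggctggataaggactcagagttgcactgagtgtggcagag

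Counting from the start site as 0, TGACG began at -129 and -66 in the Fos window, at -60 in Fosb and at -106 in Junb. It also occurred in the windows of Atf3 and Batf, so 5 of 8 members held it, against 20.8% of all 32851 promoter windows of the same length. Jun held TGACATCA at -45, the only match to TGACNTCA among the 8 windows, against 8.83% of all windows. This element was chosen after its values were seen, so the match does not set Jun apart. GCGNGGGCG, the element bound by EGR proteins, occurred in Fosb and Fosl2, against 5.55% of windows. None of the 8 windows held the AP-1 element TGANTCA, the CArG box of serum response factor or the STAT element TTCNNNGAA, which 7.81%, 1.63% and 8.3% of all windows hold. A match is a description of these letters, and a missing match concerns only this window. Not all RefSeq starts are at the gene's start in GENCODE M21: relative to it they lie at -1210 for Jund, -30 for Junb, 6 for Fosb, 51 for Batf, 671 for Fosl2 and 34706 for Atf3, an internal start. The windows of Jund, Fosl2 and Atf3 thus describe other sites than the gene starts given here.

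Of the 10 genes, 9 rose and 1, Jun, fell in EoE33 mice (edgeR quasi-likelihood test, Benjamini-Hochberg adjusted p under 0.05 over all genes). The background was high, with 31.3% of all tested genes higher, 32.1% lower and 63.4% called in either direction. The groups were apart in 8 members, 7 with EoE33 above wild type and 1 with EoE33 below, where 29.6% and 29.9% of tested genes were apart in these ways. The median log2 fold change of the members was 1.76, against -0.01 over all tested genes. With a log2 fold change of at least 1 as a further condition, 7 members were higher, and 12.3% of tested genes were. Levels are CPM, counts scaled to a common library size with TMM factors, and n is 4 mice in each group throughout. The edgeR p-values set the group difference against a spread between mice that the fit moderates over all tested genes.

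**Figure D1:**
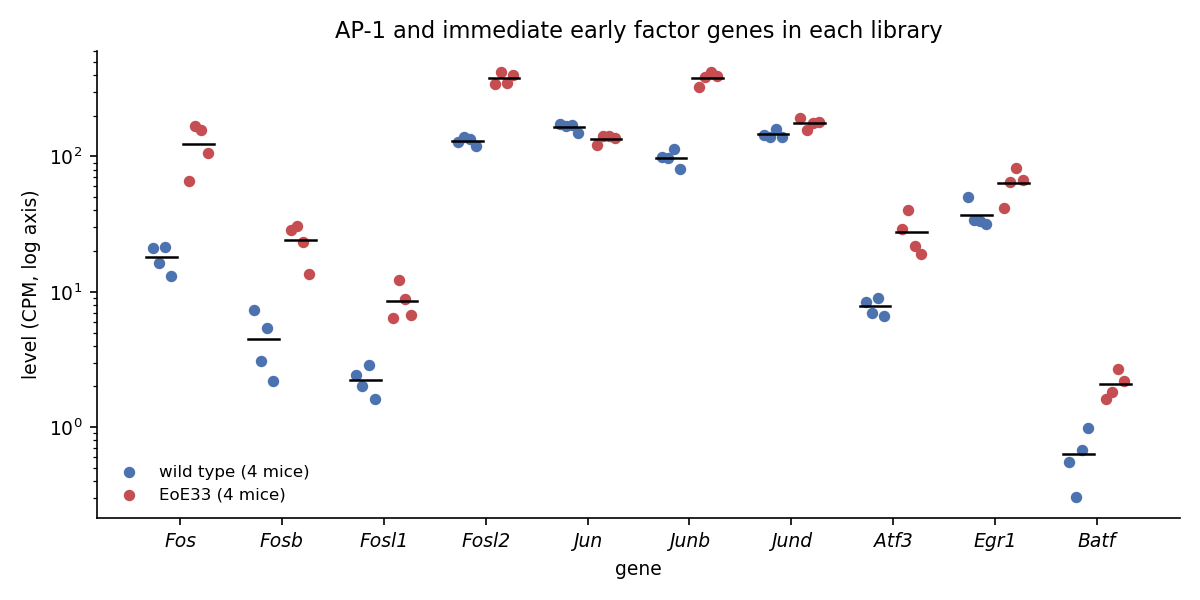
Level of each gene in each library, in CPM on a log axis, with wild type mice in blue, EoE33 mice in red and a black line at each group's mean. The groups are apart for 8 genes and overlap for Jund and Egr1, and Jun is the gene whose EoE33 libraries lie below.

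Il33 itself checked the labels: it lay between 99.8 and 165 CPM in wild type and between 355 and 393 CPM in EoE33 libraries. The counts do not separate transgene from endogenous transcripts. Libraries held between 17726292 and 24070822 counts. Tissue make-up differed between the groups. The summed level of 8 skeletal muscle markers was 27738 to 30127 CPM in wild type and 7367 to 9899 CPM in EoE33, with 8 of 8 lower, and that of 6 basal squamous markers was 2573 to 3664 CPM and 15593 to 19544 CPM, with 6 of 6 higher. Suprabasal epithelial (5 of 5), fibroblast (4 of 5) and smooth muscle (3 of 5) markers were mostly lower. The smooth muscle sum overlapped between the groups, at 942 to 3748 CPM in wild type and 1031 to 1228 CPM in EoE33. Eosinophil markers (summed level 0.132 to 0.677 CPM in wild type, 29.2 to 45.5 CPM in EoE33; 4 of 4 tested), macrophage markers (302 to 679 and 601 to 816 CPM; 5 of 6) and mast cell markers (16.8 to 59.6 and 75.2 to 129 CPM; 4 of 6) were higher, and no listed marker was at 0 over a whole group. Mitochondrial transcripts took 2.81% to 3.23% of counts in wild type and 1.64% to 2.16% in EoE33. The part of these cells and of RNA quality in the members' changes was not tested. When the model also held the muscle level, 0 members and 1 gene in all passed the threshold. That term shared 98.1% of its variance with genotype and raised the members' standard errors by a median factor of 7.37, so genotype and muscle content cannot be told apart. In bulk tissue, fewer cells of a type and less RNA per cell cannot be told apart either. Wild type replicate 3 held airway transcripts and replicate 1 liver transcripts (summed markers of 1097 and 141 CPM, against at most 7.6 and 10.9 in the other wild type libraries). Calls of named genes that were lost without both replicates are given beside the gene. Those of Klf6 and Klf10 were not looked at in that fit.

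Fos, the founding member of its family and the partner of Jun in the classic AP-1 dimer, had the largest rise of the members. The gene (ENSMUSG00000021250) occupies chromosome 12 from 85473890 to 85477273 in the build GRCm38, used for all positions here. Wild type replicates 1 to 4 held 21.2, 16.5, 21.5 and 13.1 CPM, and EoE33 replicates 1 to 4 held 66.2, 167, 157 and 105 CPM. The lowest EoE33 library was thus far above the highest wild type library, and EoE33 replicate 1 stood below the other 3. The rise was 6.85-fold, with a 95% interval from 4.11 to 11.4 (2.78 ± 0.32 on the log2 scale, standard error, with an adjusted p of 0.000142 by edgeR).

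Fosb, an immediate early member of the same family (ENSMUSG00000003545, chromosome 7 from 19302696 to 19310051), was less abundant and more variable. Wild type replicates held 7.38, 3.07, 5.42 and 2.18 CPM, and EoE33 replicates 28.5, 30.7, 23.5 and 13.5 CPM. The groups did not overlap, and wild type replicates 2 and 4 were the low libraries of their group and EoE33 replicate 4 that of its own. Fosb rose 5.31-fold (2.41 ± 0.41 on the log2 scale, standard error, with an adjusted p of 0.0011 by edgeR), and the log2 value was 3.18 without wild type replicates 1 and 3, the libraries with the higher wild type values.

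Fosl1 and Fosl2 encode Fra-1 and Fra-2, which lack the strong activation domain of Fos. Fosl1 (ENSMUSG00000024912, chromosome 19 from 5447547 to 5455946) was at 2.42, 2.02, 2.88 and 1.63 CPM in wild type and at 6.4, 12.3, 8.85 and 6.74 CPM in EoE33 libraries, and the groups did not overlap. EoE33 replicate 2 was the highest, and the rise was 3.82-fold (1.93 ± 0.26 on the log2 scale, standard error, with an adjusted p of 0.000171 by edgeR). Of its 2033 exonic bases, 1163 overlap exons of Ccdc85b on the opposite strand, which went from 21.1 ± 1.79 CPM down to 13.3 ± 0.637 CPM (SD, n = 4 each). The strand setting of the counting was not stated, and without strand the reads of such overlapping genes cannot be told apart.

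Fosl2 (ENSMUSG00000029135, chromosome 5 from 32135801 to 32157842) was the Fos family gene with the highest level in wild type esophagus and the tightest estimate. Wild type libraries held 128, 138, 134 and 119 CPM, and EoE33 libraries 344, 421, 349.8 and 403 CPM. Every EoE33 library was far above every wild type library, and the spread within each group was small. The rise was 2.92-fold (95% interval 2.54 to 3.35, 1.54 ± 0.09 on the log2 scale, standard error, with an adjusted p of 1.56e-06 by edgeR).

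The 3 Jun genes went apart. Junb (ENSMUSG00000052837), a Jun family gene induced by many cytokines and needed for normal squamous epithelium, lies on chromosome 8 from 84974484 to 84978718. It was at 99.1, 96.6, 113 and 80.7 CPM in wild type libraries and at 327, 388, 419.7 and 396 CPM in EoE33 libraries. The groups were widely separate and the 4 EoE33 mice close together. The rise was 3.93-fold (95% interval 3.26 to 4.72, 1.97 ± 0.12 on the log2 scale, standard error, with an adjusted p of 1.83e-06 by edgeR). Of its 2301 exonic bases 173 overlap Prdx2 on the opposite strand, which went from 215 ± 20.4 CPM down to 169 ± 19.7 CPM (SD, n = 4 each).

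Jun, the gene of c-Jun (ENSMUSG00000052684, chromosome 4 from 95049034 to 95052222, a single exon), was the member that fell. Wild type libraries held 173, 167, 170.2 and 149.5 CPM and EoE33 libraries 121, 141, 142 and 137 CPM. The groups did not overlap, but the lowest wild type and the highest EoE33 library were close. The difference was small, 1.22-fold lower (-0.29 ± 0.08 on the log2 scale, standard error, with an adjusted p of 0.00875 by edgeR). It did not pass without wild type replicates 1 and 3 (log2 fold change -0.23, edgeR adjusted p = 0.0914), while under the other scalings of the libraries it lay between -0.30 and -0.27. The antisense gene Junos, which overlaps 232 of its exonic bases, was at 3.29 ± 0.265 and 5.24 ± 1.79 CPM (SD, n = 4 each).

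Jund (ENSMUSG00000071076), which unlike its relatives is expressed steadily in most tissues, lies on chromosome 8 from 70698949 to 70700616. It was at 144, 140.2, 159 and 139.9 CPM in wild type and at 193, 156, 176 and 180.2 CPM in EoE33 libraries. EoE33 replicate 2 fell within the wild type range, so the groups overlapped. The rise was 1.21-fold (0.27 ± 0.08 on the log2 scale, standard error, with an adjusted p of 0.0133 by edgeR), and exact permutation of the mice's labels, two-sided, gave p = 0.0571. The antisense gene Gm11175, listed at 0 in all 8 libraries, overlaps 877 of its 1668 exonic bases.

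**Figure D2:**
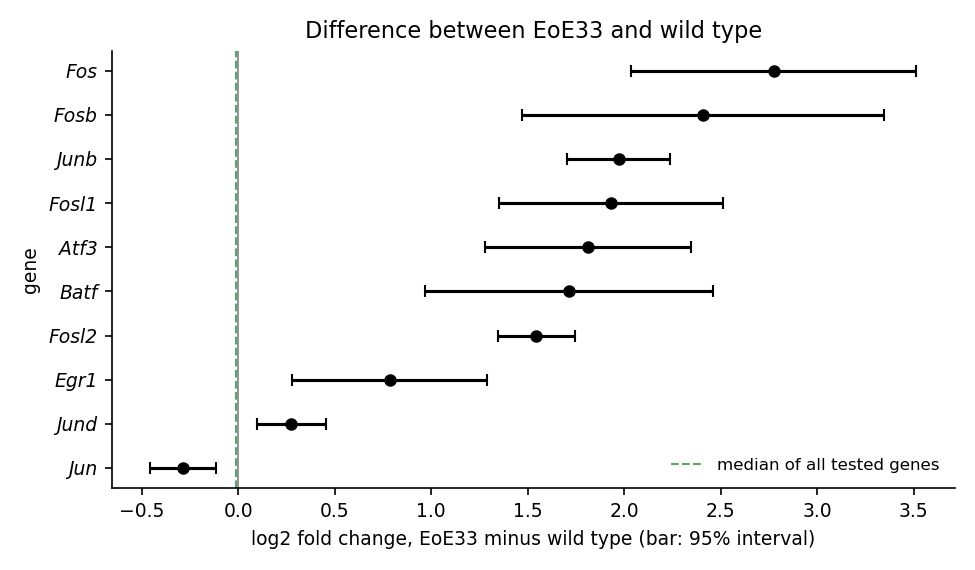
Log2 fold change of each gene (EoE33 minus wild type) with its 95% interval, in order of size. The values run from 2.78 for Fos to 1.54 for Fosl2 in 7 genes, followed by Egr1 at 0.78, whose interval overlaps those of Batf and Atf3, Jund at 0.27 and Jun at -0.29, and the dashed line marks the median of all tested genes.

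Atf3 (ENSMUSG00000026628), a stress-induced gene whose protein pairs with Jun proteins and often represses, lies on chromosome 1 from 191170296 to 191218039. Its level was 8.49, 7.03, 9.01 and 6.68 CPM in wild type libraries and 29.1, 40.03, 21.7 and 19.1 CPM in EoE33 libraries. The groups did not overlap, and EoE33 replicate 2 was the highest by a margin. The rise was 3.51-fold (1.81 ± 0.23 on the log2 scale, standard error, with an adjusted p of 0.000176 by edgeR).

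Batf (ENSMUSG00000034266, chromosome 12 from 85686669 to 85709087) was the least abundant member, with 59 counts in all wild type mice together and 171 in all EoE33 mice. It was at 0.552, 0.307, 0.677 and 0.985 CPM in wild type and at 1.62, 1.81, 2.68 and 2.2 CPM in EoE33. The groups did not overlap, and Batf rose 3.28-fold (1.71 ± 0.33 on the log2 scale, standard error, with an adjusted p of 0.0016 by edgeR). Lymphocyte markers moved with it: the sum of 9 T cell and innate lymphoid markers was 3.6 to 13.4 CPM in wild type and 21.5 to 28.2 CPM in EoE33, with 5 of 9 higher and none of the 9 at 0 in either group. Wild type replicate 4 had the highest Batf of its group, on 23 counts, and the highest T cell sum. That library also had the highest B cell, mast cell, smooth muscle, fibroblast and endothelium sums of its group. In EoE33 Batf was lowest in replicate 1, whereas the T cell sum was lowest in replicate 2. The sum of 5 B cell markers spanned 0.703 to 30.6 CPM in wild type and 6.79 to 47.1 CPM in EoE33, and 0 of 5 passed. The part of these cells in the rise of Batf was not tested.

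Egr1 (ENSMUSG00000038418), a zinc finger immediate early gene outside AP-1 that shares its induction through serum response factor, lies on chromosome 18 from 34859823 to 34864984. It was at 49.9, 33.7, 33.5 and 31.7 CPM in wild type and at 41.5, 65.3, 82.4 and 66.96 CPM in EoE33 libraries. Wild type replicate 1 was above EoE33 replicate 1, so the groups overlapped. The rise was 1.72-fold (95% interval 1.21 to 2.44, 0.78 ± 0.22 on the log2 scale, standard error, with an adjusted p of 0.0133 by edgeR), and the exact permutation test gave p = 0.0571. For each of the 8 members whose groups did not overlap the exact permutation test gave p = 0.0286, the smallest that the 70 splits of 4 against 4 allow.

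The make-up of the families also differed, and such shares within a library do not depend on the scaling between libraries. Each gene's level per kilobase of exon was taken as a percent of its family's sum. Which gene led a family depended on this division by length. Without it Jun led in wild type, at 40.4% against 35.8% for Jund. Likewise Fosl2 led in EoE33, at 71.3% against 22.6% for Fos. Junb went from 23.3% ± 1.55 of the Jun family to 52.8% ± 3.26, while Jun went from 28.5% ± 1.18 to 13.5% ± 0.697 (SD, n = 4 each). Jund took the largest share in wild type, 48.2% ± 1.66, against 33.7% ± 3.81 with the transgene (SD, n = 4 each). For all 3 Jun genes the shares of the groups did not overlap.

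In the Fos family, Fos went from 33.2% ± 3.7 to 51.2% ± 9.19, without overlap, and Fosl2 from 59.0% ± 5.49 to 40.6% ± 8.29, also without overlap (SD, n = 4 each). The shares of Fosb and Fosl1 were below 7% in every library and overlapped between the groups. The summed level per kilobase was 4.36-fold higher in EoE33 for the Fos family and 1.73-fold higher for the Jun family, and the Fos sum was 0.126 ± 0.008 of the Jun sum in wild type, against 0.317 ± 0.0722 with the transgene (SD, n = 4 each). The family sums and their ratio also depend on the division by length and were not computed without it. All these values describe the members and carry no test.

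**Figure D3:**
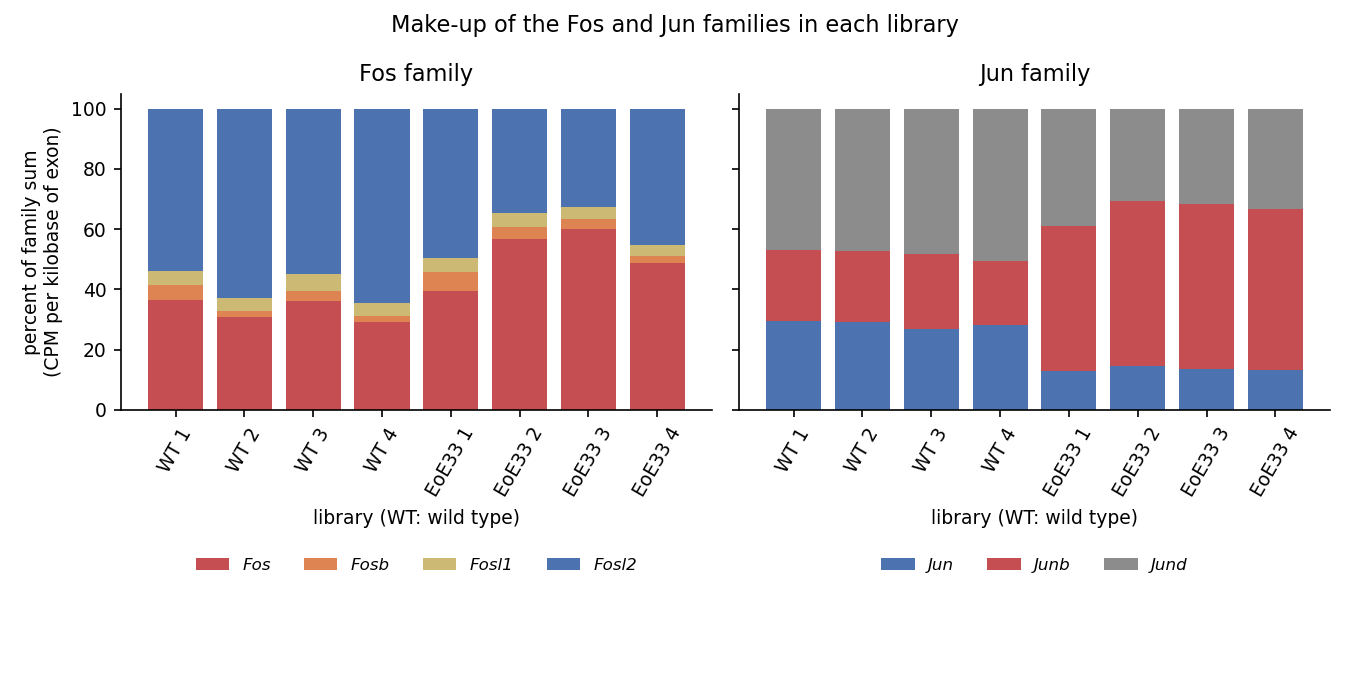
Percent of the Fos family sum (left) and the Jun family sum (right) taken by each gene, from CPM per kilobase of exon, in each of the 8 libraries. Junb takes between 48.1% and 55% of the Jun family in EoE33 libraries and between 21.1% and 24.9% in wild type libraries.

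Levels per kilobase of exon (RPKM) allow a rough comparison between genes. The order rests on merged exon lengths and, for genes that overlap others, on a strand setting that was not stated. In wild type the order was Jund at 87.3, Jun at 51.7, Junb at 42.3, Fosl2 at 13.4, Egr1 at 8.29, Fos at 7.68, Atf3 at 3.62, Fosl1 at 1.1, Fosb at 0.723 and Batf at 0.448 RPKM. The ranges of the neighbours Jun and Junb, Egr1 and Fos, Fosl1 and Fosb, and Fosb and Batf overlapped there. In EoE33 Junb led at 166 RPKM, followed by Jund at 106, Fos at 52.7, Jun at 42.4, Fosl2 at 39.2, Egr1 at 14.3, Atf3 at 12.8, Fosl1 at 4.21, Fosb at 3.85 and Batf at 1.48 RPKM. Fos thus stood at rank 3 in EoE33 and rank 6 in wild type, although its range overlapped that of Jun, which in turn overlapped that of Fosl2. The ranges of Egr1 and Atf3 and of Fosl1 and Fosb overlapped as well.

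Within the groups the members shared some of their spread between mice. Wild type replicate 4 was the lowest wild type library for 9 of 10 members, all but Batf, for which it was the highest. EoE33 replicate 1 was the lowest EoE33 library for 7 members, and replicates 2 and 3 were the highest for 5 and 4. The sum of 5 suprabasal epithelial markers was also lowest of its group in wild type replicate 4, at 50837 CPM against up to 88822, and the basal sum was the lowest of its group in wild type replicate 4 and in EoE33 replicate 1. Wild type replicate 4 had the highest smooth muscle sum of its group, at 3748 CPM against 942 to 3008 CPM. Its fibroblast and endothelium sums, at 2499 and 310 CPM, were the highest of its group as well. Within EoE33 the suprabasal sum was highest in replicate 1, at 34309 CPM, and lowest in replicate 2, at 14321 CPM. The sum of 6 neutrophil markers was 9.93 to 15 CPM in wild type, and in EoE33 it was 85.4, 177, 201 and 90.9 CPM in replicates 1 to 4, with 6 of 6 higher. The part of these cells in the members' spread was not tested. In wild type the spread was widest for Fosb and Batf, with the highest library at 3.38 and 3.2 times the lowest. In EoE33 it was widest for Fos, at 2.53 times. Jun, Jund and Fosl2 had the narrowest spread in both groups.

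**Figure D4:**
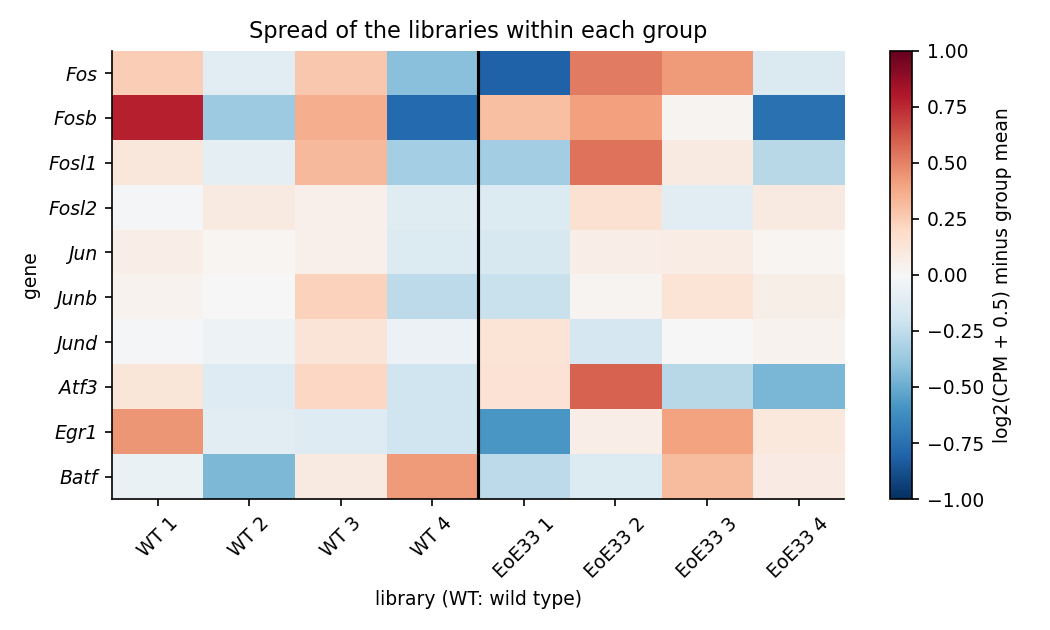
Deviation of each library from the mean of its own group, as log2(CPM + 0.5), for each gene, with red above and blue below the group mean. Blue runs down the column of wild type replicate 4 except for Batf at 0.43, and Fosb spans from -0.78 to 0.78 within wild type.

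The genes whose profiles over the 8 libraries were most like a member's were found by the root mean square difference of log2 CPM, each profile centred on its own mean. Phlda1 and Trim15 were nearest to Fos (0.203 and 0.204), Baz1a and Mctp2 to Fosl1 (0.0769 and 0.133), St14 and F11r to Fosl2 (0.0818 and 0.0832), and Ikzf2 and Capg to Junb (0.107 and 0.116). For Fosb the nearest genes, Gm19557 and Fam178b, were farther off (0.272 and 0.387). Cstf2t and Dlst were nearest to Jun (0.04 and 0.0436) and Pura and Fam32a to Jund (0.0538 and 0.0563). Pllp and Grpel2 were nearest to Atf3 (0.159 and 0.163), Ovol2 and B4galt3 to Egr1 (0.182 and 0.189), and Rinl and Tnfrsf1b to Batf (0.0728 and 0.0906). The added 0.5 narrows differences at low levels, so likeness there is not likeness of fold change. Rinl and Tnfrsf1b had log2 fold changes of 1.30 and 1.14, against 1.71 for Batf. That of Pllp was 2.93, against 1.81 for Atf3.

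Other immediate early genes moved in both directions. Of 25 listed, 24 were tested, of which 14 rose, 5 fell and 5 did not pass, with a median log2 fold change of 0.43 against -0.01 over all tested genes, of which 31.3% were higher and 32.1% lower. Zfp36, whose protein destabilises cytokine messenger RNAs, rose 3.12-fold from 44.9 ± 4.56 to 140.1 ± 21.4 CPM (SD, n = 4 each). The kinase gene Plk2, the transcription factor gene Csrnp1 and the pseudokinase gene Trib1 rose 2.75-fold, 2.44-fold and 2.16-fold. Arc, best known as an immediate early gene of neurons, was singled out after its values were seen: it rose 43.1-fold, from 1.38 ± 0.446 to 59.8 ± 22.7 CPM (SD, n = 4 each). The 5 that fell were Egr3, Klf2, Klf4, Ccn2 and Sik1, and those that did not pass were Nr4a1, Nr4a2, Nr4a3, Ccn1 and Gadd45b. Ccn2 passed narrowly (edgeR adjusted p = 0.0471), and so did Sik1 (0.0382). Both calls were lost without wild type replicate 1, 2 or 3 or EoE33 replicate 1 or 3, and without wild type replicates 1 and 3 together the adjusted p-values were 0.0868 and 0.208. Ccn1 missed the threshold narrowly (edgeR adjusted p = 0.0601), and passed without EoE33 replicate 1 or 4 or wild type replicate 1, at 0.0407 to 0.0454, and by DESeq2, at 0.0305. Nr4a1 and Nr4a2 passed as lower without EoE33 replicate 1 (0.00908 and 0.0469).

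Among further AP-1 type basic leucine zipper genes, 9 of 10 were tested, of which 4 rose, 2 fell and 3 did not pass (median log2 fold change -0.13), beside 31.3% of all tested genes higher and 32.1% lower. Jdp2, whose protein dimerises with Jun and represses AP-1 targets, rose 8.32-fold, from 9.8 ± 1.52 to 81.7 ± 35.8 CPM (SD, n = 4 each), more than any of the 10 members by point estimate. Batf3, a dendritic cell factor, rose 1.91-fold. Atf2 passed narrowly at 0.20 on the log2 scale (edgeR adjusted p = 0.0491), and did not pass in 7 of the 8 fits that left out a library, with adjusted p up to 0.112, nor without wild type replicates 1 and 3 (0.0933). Atf7 and Maf fell, with log2 fold changes of -0.39 and -0.42.

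Of the kinases and cofactors that carry signals to these genes, 5 of 20 were higher, 7 lower and 8 did not pass (median log2 fold change -0.06). These counts are near the shares of all tested genes, 31.3% higher and 32.1% lower. Elk3, a partner of serum response factor, rose 3.6-fold from 20.6 ± 1.25 to 74.1 ± 11.6 CPM (SD, n = 4 each). Mapk11, Mapk3, Map2k1 and Mrtfa rose by smaller factors, of 2.05, 1.38, 1.24 and 1.15. The call of Mrtfa was lost without wild type replicates 1 and 3 (edgeR adjusted p = 0.0624), which left 4 higher. Map2k6 and Map2k3, which activate p38 kinases, were 8.74-fold and 2.24-fold lower, and Mapk12, a p38 kinase abundant in skeletal muscle, was 2.59-fold lower. Srf itself did not pass, at a log2 value of -0.04 with a 95% interval from -0.24 to 0.15.

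Of the feedback inhibitors, 4 of 15 were higher, 7 lower and 4 did not pass (median log2 fold change -0.28), beside 31.3% and 32.1% of all tested genes. Dusp5, a phosphatase gene that answers ERK signalling, rose 2.79-fold from 35.4 ± 2.81 to 98.8 ± 7.48 CPM (SD, n = 4 each), and Nab1, a corepressor of EGR proteins, rose 2.14-fold. Dusp7 rose 1.64-fold. Dusp2 passed narrowly (edgeR adjusted p = 0.0314), and did not pass in 6 of the 8 fits that left out a library, with adjusted p up to 0.0851, nor without wild type replicates 1 and 3 (0.0865). Dusp16 and Dusp8, phosphatase genes that act on JNK and p38 kinases, were 2.36-fold and 1.91-fold lower.

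Genes known as AP-1 targets in other settings rose in 15 of 23 cases and fell in 2, with 6 not passing (median log2 fold change 2.79), beside 31.3% of all tested genes higher and 32.1% lower. Basal squamous, eosinophil, macrophage and neutrophil markers were higher and suprabasal markers lower in the same libraries. The part of these cells in the changes of this list was not tested. Plau, the urokinase gene, rose 5.48-fold from 16.3 ± 2.53 to 89.4 ± 6.86 CPM, and Hbegf, an EGF family ligand, rose 8.41-fold from 26.7 ± 6.92 to 225 ± 20.8 CPM (SD, n = 4 each). The metalloproteinase gene Mmp12 rose 19.2-fold, the adhesion receptor gene Cd44 2.59-fold and Ptgs2, which encodes cyclooxygenase-2, 6.93-fold. Sprr1a, a cornified envelope gene, rose 7.73-fold. Mmp13 rose by 5.47 on the log2 scale, and by 4.64 when EoE33 replicate 2 was left out. The loricrin gene Lor and the heme oxygenase gene Hmox1 fell, with log2 values of -3.92 and -1.51 respectively. The value for Lor was -4.51 without EoE33 replicate 1. The targets are known from other studies and systems, and binding of AP-1 was not measured here.

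**Figure D5:**
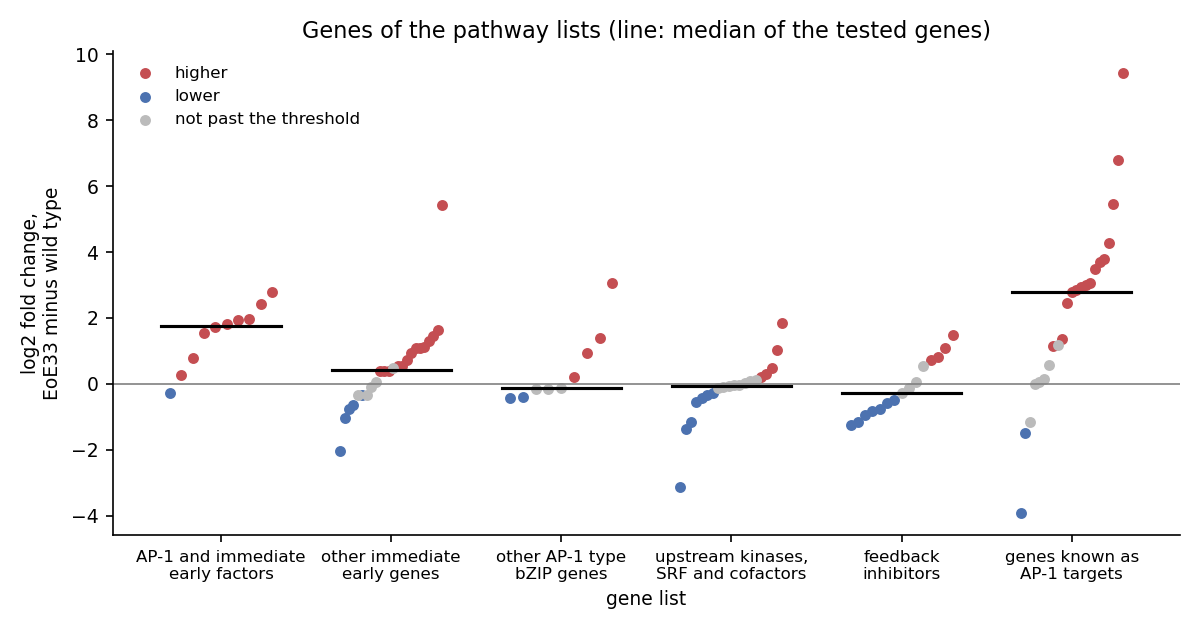
Log2 fold change (EoE33 minus wild type) of each tested gene of the 10 factors and of the 5 further lists, with genes past the threshold in red (higher) or blue (lower), others in grey, and a black line at each list's median. The medians run from -0.28 for the feedback inhibitors to 2.79 for the genes known as AP-1 targets, with the 10 factors at 1.76.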

How the data were processed

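PolyA RNA of whole esophagus from 8 mice was read in pairs on the HiSeq platform, per the labels' protocols. The authors deposited raw counts per gene, 1 column a library. The submitters' processing notes name Trimmomatic 0.36, STAR 2.5.2b, featureCounts, Subread 1.5.2 and GRCm38, without roles. Annotation release, strand setting and the handling of multiply matching reads were not stated. Columns were assigned to mice by the spreadsheet letter in each description. GENCODE M21 (GRCm38) held 49056 of the 49315 identifiers and supplied their symbols, positions and exon lengths.

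Genes passing filterByExpr (16760) were scaled by TMM and compared in edgeR 4.0.16 under R 4.3.3, by quasi-likelihood with robust dispersion and genotype as the only term. Standard errors follow from the F statistic. RPKM is CPM per kilobase of merged exons. Permutation tests used log2(CPM + 0.5). Replicate libraries differed beyond sampling noise, with chi-square per degree of freedom from 10.4 to 70.1. The fit was tested on simulated data, where it recovered 38% of genes raised 1.5-fold, 80% at 2-fold and 98% at 4-fold. A gene that did not pass may thus still differ by a small factor. Far fewer genes were changed there than were called here, so the test does not cover data changed as widely.

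The members and gene lists were chosen with earlier results of these data known. Beside all 10 members, the rule named the 4 genes of each list with the smallest p and the 2 genes with mean CPM of at least 1 most like each member. Some genes of the lists are counted but not reported here by name. Other genes named, and the element TGACNTCA, were chosen after their values were seen. Alternatives were other scalings, low-count filters and tests (DESeq2 1.42.0, limma-voom of limma 3.58.1), the replicate number or muscle level as a term, a fold threshold, and leaving out libraries.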

Additional observations from a re-analysis of the deposited data

Results flagged for a closer look

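A library was taken to stand apart when its gap to the nearest of the other 3 was large against its group's range (Dixon's criterion at 95%). Of 48 groups of 4 libraries looked at, 20 of them of the members, 7 libraries stood apart, where chance gives about 1 in 20 groups. Among the members this held for Egr1 in wild type replicate 1, at 49.9 CPM against 31.7 to 33.7 in the other 3. The other 6 concerned summed marker levels. Airway markers reached 1097 CPM in wild type replicate 3 and liver markers 141 CPM in wild type replicate 1, and liver markers were at 3.58 CPM in EoE33 replicate 3 against at most 0.999 in the others. T cell and innate lymphoid markers were at 13.4 CPM in wild type replicate 4, against 3.6 to 4.7, and at 21.5 CPM in EoE33 replicate 2, against 27.4 to 28.2. Skeletal muscle markers were at 9899 CPM in EoE33 replicate 4, against 7367 to 7738 in the other EoE33 libraries.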

How the results depend on the processing

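When the model also held the skeletal muscle level, no list gave a call: 0 members, 0 genes of each further list, 0 lower genes and 1 higher gene in all passed. In that fit the log2 fold change turned to -1.14 ± 2.95 for Fosb, 0.0753 ± 0.58 for Jun and -0.56 ± 1.64 for Atf3 (standard error). It also turned to 0.16 for Dusp8, 0.16 for Atf7, -0.30 for Egr2, 0.87 for Klf4 and -0.97 for Ptgs2. For Nr4a3, Ccn1 and Ccn2 it turned to -1.39, -0.69 and 2.41. None of these values passed, so that fit does not settle their direction. With a log2 fold change of at least 1 as a further condition, by its own construction, 2057 genes were higher and 2496 lower, against 5238 and 5383. The members then gave 0 lower, the other immediate early genes 7 higher and 2 lower, the further leucine zipper genes 2 and 0, the upstream genes 2 and 3, and the feedback inhibitors 2 and 2. Without wild type replicates 1 and 3, 0 members were lower and the other immediate early genes had 3 lower, against 5 with all libraries. Leaving out 1 library at a time gave 3 to 5 of them lower, and log2 fold changes from -0.0853 to 0.0226 for Srf, from -0.11 to 0.24 for Nr4a3 and from -0.17 to 0.0222 for Gadd45b, which was 0.0304 without wild type replicates 1 and 3. All 80 values of members without 1 library kept their direction and call, as did all members under the other scalings, low-count filters and tests. Without division by length, Fos took 11.6% of its family in wild type and 22.6% in EoE33, Fosl1 1.43% and 1.58%, Fosl2 84.1% and 71.3%, and in the Jun family Jun took 40.4% and 19.5% and Jund 35.8% and 25.5%. The replicate numbers do not pair the mice by any label, and same-numbered libraries had correlations of deviations between -0.128 and 0.124. With the replicate block 10056 genes passed in place of 10621, and 8 members were higher, since Egr1 had an edgeR adjusted p of 0.0629. Depth limits Batf most, with 7 to 62 counts a library.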

Other observations

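Within 3 small families of immediate early genes and their regulators, members moved in opposite directions. In the EGR family, Egr2 rose 2.11-fold, from 1.59 ± 0.326 to 3.37 ± 0.854 CPM, while Egr3 was 4.15-fold lower, going from 8.73 ± 0.729 to 2.09 ± 0.831 CPM (SD, n = 4 each). The edgeR adjusted p-values were 0.00341 and 0.000125, and the groups overlapped for neither gene. Among the Krüppel-like factors, Klf4, a factor of differentiated squamous cells, fell from 480.1 ± 59.3 to 283 ± 58.8 CPM and Klf2 from 40.1 ± 6.2 to 19.6 ± 4.13 CPM, while Klf6 and Klf10 rose 1.3-fold and 1.44-fold (SD, n = 4 each). The calls of Klf6 and Klf10 were not looked at without wild type replicates 1 and 3. In that fit 13 of the other immediate early genes were higher, against 14 with all libraries. Of the EGR corepressor genes, Nab1 rose 2.14-fold and Nab2 was 1.51-fold lower.

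Among single immediate early genes, Dusp1, a phosphatase gene that switches off MAP kinases, rose 1.92-fold from 108 ± 16.7 to 208 ± 39.8 CPM, and Ier2 and Ier3 rose 1.66-fold and 2.11-fold (SD, n = 4 each). Nr4a1, Nr4a2 and Nr4a3, nuclear receptor genes of the same early class, did not pass, with log2 fold changes of -0.33, -0.35 and 0.06. For Nr4a1 the 95% interval ran from -0.73 to 0.06, and it passed without EoE33 replicate 1 (log2 fold change -0.52, edgeR adjusted p = 0.00908) and with the replicate block (-0.34, adjusted p = 0.026). Nr4a2 passed without EoE33 replicate 1 (log2 fold change -0.57, edgeR adjusted p = 0.0469).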
